A study of Mus musculus with 4 samples.

Results

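The 404 promoter regions described here carried an intact CREB/ATF palindrome near the summit of open chromatin in mouse epidermal keratinocytes. They were found among 22032 promoter regions and 82641 merged regions of an ATAC-seq experiment, an assay in which the Tn5 transposase cuts accessible DNA. Peaks of 4 libraries that overlapped by at least 1 bp were merged, and the summit of a region was that of its peak with the highest fold enrichment. A region was kept when its edge lay within 2 kb of an annotated transcription start site (TSS) and when the 8 bases TGACGTCA, called the CRE palindrome from here on, lay wholly within 100 bp of the summit in the mm10 genome. A member thus needed a called peak in at least 1 library. Beyond this and the choice of the summit, the rule used sequence and position only.

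Both groups came from adult female mice on a C57BL/6 background that had received 5% imiquimod cream (Aldara) on the skin for 8 days, and no untreated skin was compared. Of the 4 libraries, 2 were labelled WT (named WT 1 and WT 2) and 2 were labelled Mapk8-KO (Mapk8-KO 1 and Mapk8-KO 2). Where values are given for WT and for Mapk8-KO, replicate 1 of each group comes first. Mapk8 encodes JNK1, a stress-activated kinase. Per the methods of the study, the gene was floxed (Mapk8 fl/fl) and removed by Cre expressed from the promoter of keratin 14, which limits the deletion to cells that use or have used this promoter, and live cells positive for EpCam and high for CD49f were sorted. The labels name the source as whole skin and the cells as keratinocytes. The study describes 2 independent samples per group, and whether a sample held 1 mouse or several is not given in the sources used here. The p-values therefore measure only the spread between these libraries, which may be partly technical.

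The CRE is the classical DNA element of the cyclic AMP response. It is bound by dimers of bZIP proteins, among them CREB, CREM, ATF1 and ATF2, and by ATF2 paired with c-Jun. JNK kinases phosphorylate c-Jun and ATF2, whereas protein kinase A and related kinases phosphorylate CREB. The AP-1 motif (TGACTCA or TGAGTCA), which Fos and Jun dimers bind, differs from the CRE by the loss of 1 central base pair, and the CG at the centre of the CRE can be methylated where a promoter is silent.

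The promoters of known CREB targets and of Jund that held the palindrome are shown first, since they let the element be seen at genes with a described cyclic AMP response. Each line gives 30 bases on either side of the palindrome, 5′ to 3′ on the strand of the gene, with the palindrome in capitals (reference sequence of mm10, GRCm38). They come from Areg (chr5:91139508-91139575, plus strand), Dusp1 (chr17:26508578-26508645, minus strand), Gem (chr4:11704345-11704412, plus strand), Ier2 (chr8:84662860-84662927, minus strand), Per1 (chr11:69097172-69097239, plus strand), Vgf (chr5:137030175-137030242, plus strand) and Jund (chr8:70698705-70698772, plus strand).
Areg: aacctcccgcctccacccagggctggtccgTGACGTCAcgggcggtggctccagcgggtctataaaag
Dusp1: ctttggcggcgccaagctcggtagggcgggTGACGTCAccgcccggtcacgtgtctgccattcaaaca
Gem: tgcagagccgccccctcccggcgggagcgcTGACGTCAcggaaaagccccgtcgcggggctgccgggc
Ier2: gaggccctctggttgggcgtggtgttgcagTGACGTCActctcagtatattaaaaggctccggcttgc
Per1: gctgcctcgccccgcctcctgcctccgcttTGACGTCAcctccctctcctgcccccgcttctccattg
Vgf: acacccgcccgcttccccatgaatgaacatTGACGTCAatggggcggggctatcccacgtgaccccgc
Jund: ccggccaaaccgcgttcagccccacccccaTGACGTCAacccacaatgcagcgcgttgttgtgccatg

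The promoters on which the comparison of the genotypes turns are shown next. They are those of Rps29 (chr12:69159213-69159280, minus strand), 4930568G15Rik (chr1:165091900-165091967, minus strand), Zfp458 (chr13:67278513-67278580, minus strand), Ddx19a (chr8:110997808-110997875, minus strand), Ltbp1 (chr17:75005426-75005493, plus strand), Vsig8 (chr1:172559787-172559854, plus strand) and Limk1 (chr5:134676227-134676294, minus strand).
Rps29: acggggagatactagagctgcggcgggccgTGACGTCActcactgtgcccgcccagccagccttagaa
4930568G15Rik: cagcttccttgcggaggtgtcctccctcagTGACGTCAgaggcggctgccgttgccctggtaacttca
Zfp458: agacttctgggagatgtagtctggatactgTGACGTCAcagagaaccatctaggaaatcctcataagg
Ddx19a: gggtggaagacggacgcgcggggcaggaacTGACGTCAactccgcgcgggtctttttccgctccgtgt
Ltbp1: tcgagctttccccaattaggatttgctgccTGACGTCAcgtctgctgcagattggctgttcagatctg
Vsig8: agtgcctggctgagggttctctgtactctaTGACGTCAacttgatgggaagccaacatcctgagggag
Limk1: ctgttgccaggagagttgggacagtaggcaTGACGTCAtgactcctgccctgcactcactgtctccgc

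A last set shows 3 of the most accessible members, Ift57 (chr16:49699102-49699169, plus strand), Mterf1b (chr5:4192279-4192346, plus strand) and Habp4 (chr13:64161721-64161788, plus strand), and Braf (chr6:39725507-39725574, minus strand), whose promoter held 2 copies within the printed bases.
Ift57: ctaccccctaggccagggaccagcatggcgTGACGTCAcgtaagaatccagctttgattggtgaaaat
Mterf1b: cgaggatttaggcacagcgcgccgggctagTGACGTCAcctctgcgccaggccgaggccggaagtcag
Habp4: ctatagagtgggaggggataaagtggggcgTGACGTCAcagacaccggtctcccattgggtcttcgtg
Braf: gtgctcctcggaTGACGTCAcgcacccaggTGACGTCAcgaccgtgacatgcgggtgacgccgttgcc

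Open regions with the palindrome were mostly promoters. The palindrome was found in 404 of 22032 promoter regions (1.83%, Wilson 95% interval 1.66 to 2.02) and in 234 of 60609 regions away from promoters (0.39%, 0.34 to 0.44). Of the 638 regions with the palindrome, 63.32% were promoter regions, whereas promoters made up 26.66% of the merged regions. The AP-1 motif had the opposite distribution, at 12.13% of promoter regions without the palindrome and 28.0% of regions away from promoters. These intervals cover counting error only.

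Most copies of the palindrome in the genome lay in no called region, while most of those at a coding start site did. The mm10 chromosomes searched held 14499 copies, of which 13248 lay over 2000 bp from any coding TSS, and 3.79% of those fell in a region. Among the 659 copies at 151 to 2000 bp from a coding TSS, 29.29% did. Of the 592 copies within 150 bp of a coding TSS, 75.34% fell in a region and 68.24% in a region called in all 4 libraries. Over the 32815 RefSeq promoter windows of the same assembly, which run from 250 bases before to 50 bases after a gene start, 588 (1.79%) held the palindrome. Of these windows 74.8% overlapped a region, against 42.5% of all windows. The palindromic E-box TCACGTGA, a motif made of the same bases in another order, gave 82.2%, and the AP-1 motif was in 1708 windows, of which 684 overlapped a region. The share was thus above that of all windows for both palindromes.

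Within the members, the palindrome sat just upstream of the gene start. A protein-coding TSS lay within 2 kb of 368 of the 404 regions, and 353 regions spanned a TSS of some kind. At the coding genes 380 palindromes were counted, with a median position of -34.5 bp from the nearest TSS of the assigned gene (quartiles -79 and -4, negative values being upstream). Of these, 299 (78.7%) were upstream, and 150 (39.5%) lay 1 to 50 bp upstream. Only 42 (11.1%) lay in the first 50 bp of the transcript. By annotation, 211 of all 416 palindromes were between genes, 100 in an intron, 85 in a UTR, 16 in a noncoding exon and 4 in a coding exon. A divergent pair of coding genes with starts within 1 kb of each other was found at 36 regions, and 36 regions had no coding TSS, with a lincRNA nearest in 15 and a processed pseudogene in 6.

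**Figure D1:**
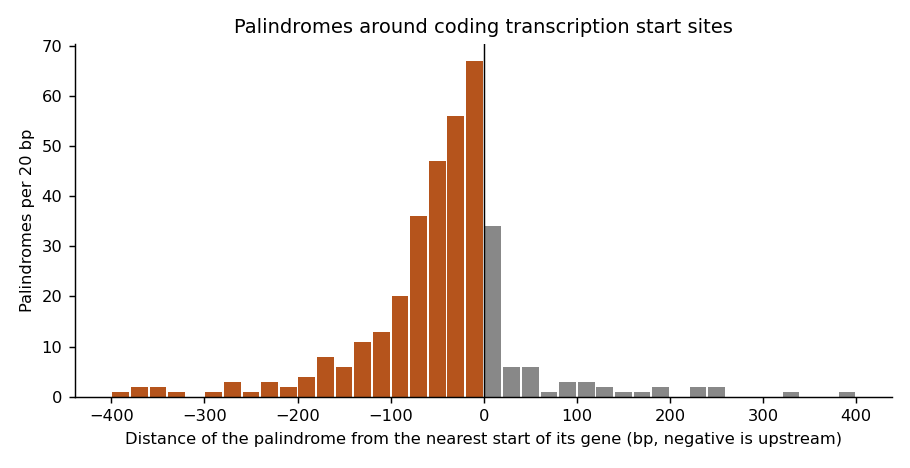
Number of palindromes per 20 bp by distance from the nearest TSS of the assigned coding gene (negative values are upstream, in brown), with 349 of 380 palindromes inside the 400 bp shown on each side. Counts rise toward the TSS to 67 in the last 20 bp upstream and fall to 34 in the first 20 bp downstream.

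The palindrome seldom lay at the very summit of the peak, and 30 of 416 palindromes (7.2%, 5.1 to 10.11) were centred within 20 bp of the summit, a span that makes up 20.6% of the positions searched, whereas 175 (42.1%, 37.42 to 46.86) were centred 21 to 40 bp away. The AP-1 motif in promoter regions was at 28.7% and 31.1% for the same spans. The TGACG core without its second arm was at 21.4% and 24.4%, and the ETS motif CCGGAAG at 21.2% and 25.4%. The E-box palindrome resembled the CRE palindrome, with 7.7% (4.74 to 12.36) and 36.1% (29.66 to 43.05). Palindromes away from promoters showed the same pattern, with 28 of 236 (11.9%) within 20 bp and 94 (39.8%) at 21 to 40 bp.

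Each library showed this spacing by its own summits. Among members called in the library and with the palindrome still within 100 bp, the share within 20 bp of the summit was 7.3% and 11.5% for WT, 10.3% and 9.0% for Mapk8-KO. The share at 21 to 40 bp was 42.1% and 45.8% for WT, 41.4% and 38.5% for Mapk8-KO. The genotypes overlapped in the share within 20 bp. In the share at 21 to 40 bp both WT libraries were above both Mapk8-KO libraries, a difference that was not tested. Whether the sequence preference of Tn5, which was not corrected in the deposited files as far as the sources used here state, has a part in this spacing was not tested.

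**Figure D2:**
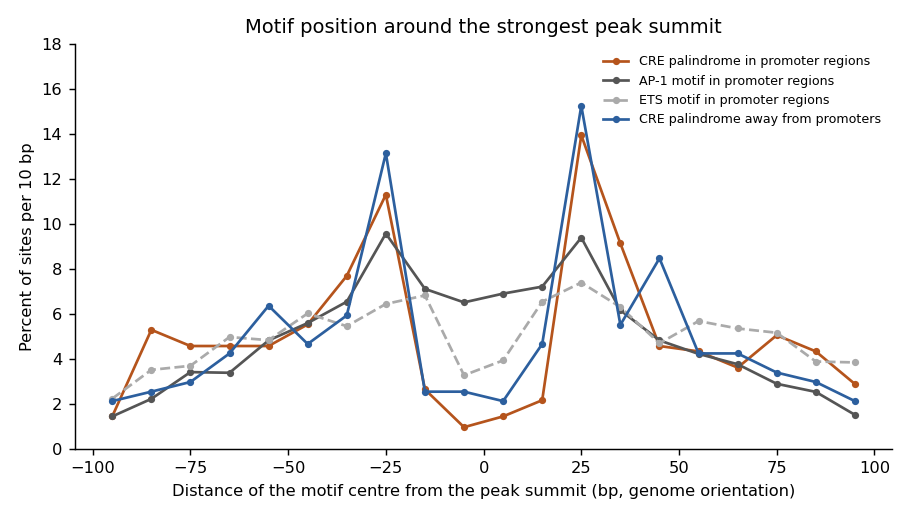
Percent of motif sites per 10 bp against the distance of the motif centre from the strongest summit of the region (bp), for the palindrome in and away from promoters and for the AP-1 and ETS motifs in promoter regions without the palindrome. The CRE palindrome has maxima on both sides of the summit and a minimum at it, while 28.7% of AP-1 sites lie within 20 bp of the summit.

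The base next to the palindrome was most often G. Read outward on both strands, the base before TGACGTCA was G in 50.1% of 832 flanks in members, against 28.6% of 472 flanks away from promoters and 8996 of 28998 flanks over all copies of the genome. T was found in 7.3% of flanks in members and 7.2% away from promoters, against 20.5% in the genome. Away from promoters A was the commonest base, at 34.3%, against 16.7% in members. The sequences of Areg, Dusp1, Ier2, Rps29 and Ift57 printed above have this G on both flanks, and those of Vgf, Jund and Limk1 on neither.

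Members were rich in GC and CpG. Their median GC content in the window around the summit was 64.4%, against 59.2% in the other promoter regions, and their median CpG observed to expected ratio was 0.89 against 0.61. They were also wider, with a median of 760.5 bp against 592. The GC box GGGCGG, bound by SP proteins, was present in 54.46% of members (49.58 to 59.25) and 43.39% of the others, the ETS motif in 13.86% (10.83 to 17.57) and 8.34%, and CCAAT, the NF-Y element, in 30.69% (26.4 to 35.35) and 27.48%. All motifs were searched on both strands. An AP-1 motif accompanied the palindrome in 12 members only (2.97%, 1.71 to 5.12), against 12.13% of the other promoter regions, while 62 of the 234 distal regions with the palindrome (26.5%) held an AP-1 motif as well. The 12 included Rcan1, a calcineurin regulator, Ttc1, Cdip1 and Il15ra, which were named after their values were seen.

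Accessibility at the members was broad across libraries. A peak was called in all 4 libraries at 344 of 404 members (85.1%, 81.35 to 88.28), against 65.6% of the other promoter regions, and 48.6% of all regions. Of the rest, 31 were called in 3 libraries, 18 in 2 and 11 in 1. WT 1 called 391 members, WT 2 called 365, Mapk8-KO 1 called 391 and Mapk8-KO 2 called 369. WT 2 and Mapk8-KO 2 were the shallower libraries, with a depth relative to WT 1 of 0.694 and 0.612 against 1.1 in Mapk8-KO 1, as judged by the median summit pileup of regions called in all 4. Both replicate 1 libraries, and no other, called 8 members, and both replicate 2 libraries alone called 1. Members with the palindrome 1 to 150 bp upstream of a coding TSS were called in all 4 libraries in 90.2% of 244 cases, those over 150 bp from it in 77.1% of 70, and those without a coding gene in 72.2% of 36.

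The summit pileup, the number of DNA fragments stacked at the summit, was recovered from the deposited fold enrichment and −log10 p of each peak. Over the 344 members called in all 4 libraries, its median was 61 and 43 fragments for WT, 71 and 43 for Mapk8-KO. The 14186 other promoter regions gave 54, 38, 62 and 38. Ranked by fold enrichment among the 40159 regions called in all 4 libraries, the median member stood at percentile 60 and 64.0 for WT, 66.4 and 68.7 for Mapk8-KO. Members thus stood above the other promoter regions in each library, where the medians ran from 51.1 to 58.6. The 4009 promoter regions with the TGACG core and no palindrome were closer to the members, at percentiles 57.8 and 61.4 for WT, 60.9 and 66.6 for Mapk8-KO, with 77.85% called in all 4 libraries, a median GC content of 63.2%, a CpG ratio of 0.81, a width of 715 bp and a median log2 difference of 0.16 between the genotypes.

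The most accessible members by mean percentile were Pot1a, which encodes a telomere-binding protein, Ift57, of the intraflagellar transport machinery, Mterf1b, a mitochondrial transcription termination factor, Habp4 and 5730480H06Rik. Pot1a (chr6:25808802-25809713) had pileups of 182 and 133 in the WT libraries and 199 and 129 in the Mapk8-KO libraries, at percentiles between 97.6 and 99.7. Ift57 (chr16:49698714-49699514) had 176 and 130 in WT and 201 and 112 in Mapk8-KO. Their log2 differences between the genotypes were 0.06 (SE 0.17) and 0.01 (SE 0.17). Mterf1b has a close copy, Mterf1a, which is also a member, and whether the reads separate them was not tested. The groups overlapped in rank at 4 of these genes, and at Ift57 both WT libraries (percentiles 99.4 and 99.7) ranked just above both Mapk8-KO libraries (98.9 and 97.6).

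To ask whether promoters with the palindrome depended on JNK1, log2 pileups were centred on the median of each library and compared between genotypes. On this scale members had medians of 0.316 and 0.339 for WT, 0.395 and 0.519 for Mapk8-KO. Both Mapk8-KO libraries were above both WT libraries, and Mapk8-KO 2 was the highest. The other promoter regions had the same order, with 0.14, 0.16, 0.199 and 0.341, and the palindromes away from promoters did not. The median log2 difference, Mapk8-KO minus WT, was 0.174 over members (quartiles 0.043 and 0.326), 0.139 over the other promoter regions and 0.054 over all regions tested. It was positive at 283 of 344 members (82.3%) and at 72.3% of the other promoter regions. No test was made of the members as a group.

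**Figure D3:**
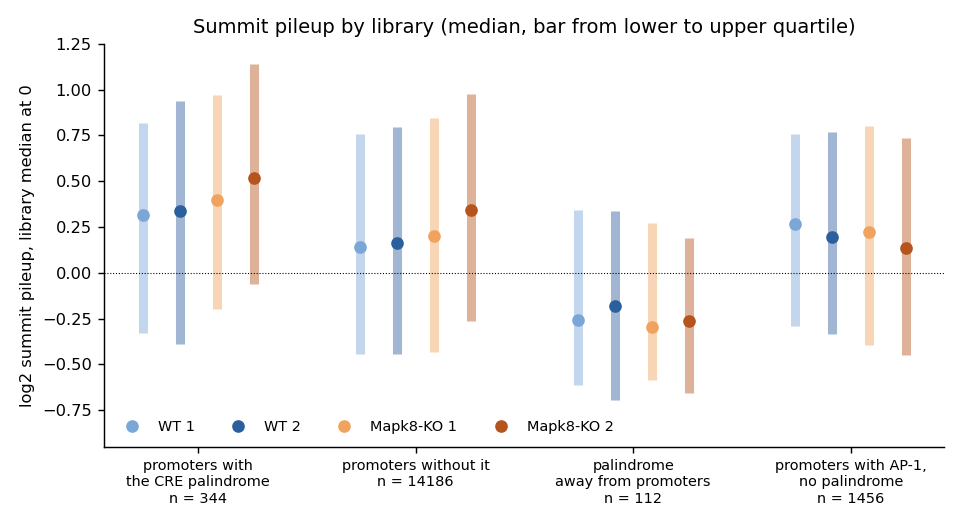
Centred log2 summit pileup in each library (points are medians over regions, bars run from the lower to the upper quartile, 0 is the median of all regions called in all 4 libraries). Promoters with the palindrome and promoters without it both have their highest median in Mapk8-KO 2, whereas palindromes away from promoters lie below 0 in each library.

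GC content moved with this shift. After a correction of each library for the GC content of the summit window, the member medians were 0.2 and 0.235 for WT, 0.264 and 0.239 for Mapk8-KO, and the median difference fell from 0.17 to 0.04 for members and from 0.14 to 0.03 for the other promoter regions. The share of members with a positive difference was then 57.8%, against 55.8%. Without the correction, members at 70% GC or more had a median difference of 0.23 (n = 87), beside 0.2 at other promoters of that GC content. At 60 to 70% GC the medians were 0.16 (n = 163) and 0.16, at 50 to 60% they were 0.15 (n = 77) and 0.1, and under 50% they were 0.14 (n = 17) and 0.0. Centring on promoter regions in place of all regions lowered the member median to 0.05, and the log2 fold enrichment lowered it to 0.09. Without Mapk8-KO 2 it was 0.14.

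**Figure D4:**
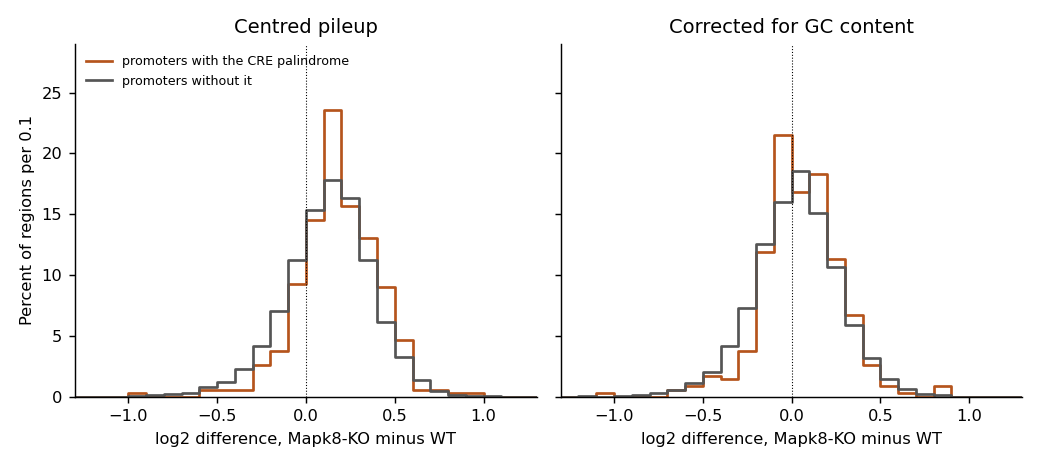
Percent of regions per 0.1 of log2 difference (Mapk8-KO minus WT) for the 344 members and the 14186 other promoter regions called in all 4 libraries, from centred pileups (left) and after the GC correction (right). The members peak to the right of 0 in the left panel, with a median of 0.17. In the right panel their highest bin runs from -0.1 to 0.0, and their median is 0.04.

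The palindrome away from promoters did not share the positive shift. The 112 distal regions with the palindrome that were called in all 4 libraries had a median difference of -0.025, beside -0.008 over all regions away from promoters. AP-1 promoter regions without the palindrome had -0.011. Median GC content was 50.2% in the distal regions with the palindrome and in these AP-1 promoter regions, against 64.4% in members. It was 53.5% in members with an AP-1 motif and 55.0% in those without a coding gene. Whether GC content has a part in these contrasts was not tested. The 6 members with both motifs that were called in all 4 libraries had a median of 0.0, with values from -0.12 to 0.31. Among members, the median was 0.18 with the palindrome 1 to 150 bp upstream of a coding TSS, 0.18 with it 0 to 150 bp downstream, 0.17 farther away and 0.06 at regions without a coding gene. It was 0.2 beside a GC box, 0.19 beside an ETS motif and 0.12 beside CCAAT. The 10 of 12 members with 2 palindromes that were called in all 4 libraries had 0.1. At the edge of the rule, 25 promoter regions had the palindrome ending 91 to 100 bp from the summit, of which the 23 called in all 4 libraries had 0.21, and 14 lay just outside, at 101 to 110 bp, of which 13 had 0.33.

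Few single members differed. Limma called 1 member higher in Mapk8-KO (0.291% of 344, background 0.11% of all regions tested) and 1 higher in WT (0.291%, background 0.498%), at a Benjamini-Hochberg adjusted p under 0.05 over 40159 regions. At an unadjusted limma p under 0.05, 38 of the 344 members were higher in Mapk8-KO (background 5.82%) and 2 were higher in WT (0.581%, background 5.44%). Among the other promoter regions these shares were 8.18% and 1.73%. The centred pileups of the genotypes did not overlap, with both Mapk8-KO libraries above, at 144 members (41.9%, background 24.6%), and with both WT libraries above at 13 (3.78%, background 16.9%). Among other promoter regions, 32.9% and 8.23% did not overlap in these directions. By rank, 19 members stood at least 10 percentile points higher in both Mapk8-KO libraries than in either WT library (5.52%, background 4.07%), and 4 the reverse (1.16%, background 4.65%). After the GC correction, limma called 0 members, 13 had an unadjusted p under 0.05 in the direction of Mapk8-KO and 7 in that of WT. Over all 40159 regions this fit called 97, and 4059 had an unadjusted limma p under 0.05 in either direction. The counts depended on single libraries, and calls from a fit with 1 library in a group are not counted here. The median log2 difference of members was 0.14 without WT 1 or without Mapk8-KO 2. It was 0.20 without WT 2 and 0.24 without Mapk8-KO 1.

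The called member higher in Mapk8-KO was the region at Rps29 (chr12:69158832-69159710), whose gene encodes a protein of the small ribosomal subunit. The region also held the start of Rn7s1, a 7SL RNA gene with near-identical copies. Per the methods of the study, reads with several placements or low mapping quality were removed. Whether the placement of fragments among the copies has a part here was not tested. Its pileup was 179 and 115 for WT, 195 and 399 for Mapk8-KO. Mapk8-KO 2 alone was high, and Mapk8-KO 1 overlapped the WT libraries on the centred scale. The log2 difference was 0.98 (SE 0.18, limma, Benjamini-Hochberg adjusted p = 0.000465), it was 0.07 without Mapk8-KO 2 (adjusted p = 0.976, limma), and without WT 2 it was 0.94 (adjusted p = 0.175, limma). The palindrome lay at -61 bp from the Rps29 TSS. The member at Rn7s2, the neighbouring 7SL gene, was chosen after its values were seen and had pileups of 128, 94, 127 and 183 in the same order, so that Mapk8-KO 2 was again the high library.

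The called member higher in WT was at 4930568G15Rik (chr1:165091687-165092145), annotated as a lincRNA, a long noncoding RNA. Its pileup was 77 and 41 for WT, 54 and 15 for Mapk8-KO. On the centred scale the WT libraries (0.65 and 0.27) were above the Mapk8-KO libraries (0.0 and -1.0), and Mapk8-KO 2 was the lowest. The log2 difference was -0.96 (SE 0.25, limma, adjusted p = 0.031), -0.43 without Mapk8-KO 2 (adjusted p = 0.829, limma), -0.8 without WT 1 (adjusted p = 0.536, limma) and -1.14 without WT 2 (adjusted p = 0.296, limma). Its palindrome lay at -6 bp from the TSS.

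Other large differences toward Mapk8-KO did not pass the adjusted threshold. Zfp458, a zinc finger gene, had 16 and 14 fragments for WT, 33 and 20 for Mapk8-KO (log2 difference 0.8, SE 0.31, limma adjusted p = 0.261). Both Mapk8-KO libraries were above both WT libraries there once depth was taken into account. Ddx19a, an RNA helicase gene, had 31, 15, 38 and 34 in the same order (0.76, SE 0.28, limma adjusted p = 0.234). Plk4, the kinase of centriole duplication, had 44, 26, 67 and 39 (0.62, SE 0.24, limma adjusted p = 0.252), with the palindrome at -1 bp from its TSS. The groups did not overlap on the centred scale at either gene. Toward WT, Ltbp1 (chr17:75004970-75006022), which encodes a latent TGF-beta binding protein, had 61, 48, 57 and 24 (-0.53, SE 0.23, limma adjusted p = 0.34), and Mapk8-KO 2 was the lowest there. Without Mapk8-KO 1 the difference at Ddx19a was 1.1 and passed the threshold (limma adjusted p = 0.028).

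Presence and absence of a peak separated the genotypes at 6 members. A peak in both Mapk8-KO libraries and in no WT library was found at 5 (1.24%, background 1.65%), and the reverse at 1 (0.248%, background 2.17%). Among the 5 were Vsig8, which encodes a membrane protein with immunoglobulin-like domains, Daam2, a formin gene, Limk1, a kinase of cofilin, and Lrguk. Vsig8 (chr1:172559757-172559957), the strongest, had 51 and 35 fragments in these libraries. Daam2, Limk1 and Lrguk had between 9 and 21, and the palindrome of Limk1 lay 1987 bp downstream of its TSS, in an intron. The member seen only in WT was at Ift81, an intraflagellar transport gene, with 23 fragments in WT 1 and 9 in WT 2. A region without a peak has no value in the deposited lists, so these members had no fold change.

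Members with 2 palindromes were few. Of the 12, the 5 of highest mean percentile were Mturn, Braf, Lekr1, Pak1 and Tead1. Braf, the kinase that activates MEK, had 53 and 57 fragments for WT, 87 and 40 for Mapk8-KO. Its genotypes overlapped (log2 difference 0.12, SE 0.21). Pak1, a kinase downstream of Rac, had 60 and 48 for WT, 64 and 32 for Mapk8-KO (-0.23, SE 0.22), and Tead1, the DNA-binding partner of YAP, had 37 and 23 for WT, 49 and 33 for Mapk8-KO (0.48, SE 0.26). These differences pointed in opposite directions and neither passed the adjusted limma threshold.

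Genes of the cyclic AMP and bZIP pathways were then examined from lists of genes. Of 38 CREB target genes, 9 had the palindrome in an accessible promoter region, namely Crem, Per1, Dusp1, Ccna2, Areg, Vgf, Ier2, Gem and Maff, and 11 more had only the TGACG core. By the strongest promoter region of each gene, 29 of the 38 could be tested with limma, and 1 was called higher in Mapk8-KO and 0 in WT (median 0.14, beside 0.054 over all regions). At an unadjusted limma p under 0.05 the numbers were 4 and 0, the 4 being Nr4a1, Nr4a2, Nr4a3 and Ier2, the last at another of its promoter regions than the member. Other promoter regions leaned the same way, with 8.18% toward Mapk8-KO and 1.73% toward WT at that p and a median of 0.139. The called gene, the nuclear receptor Nr4a1, was not a member. Its promoter region had 31, 21, 48 and 54 fragments in WT 1, WT 2, Mapk8-KO 1 and Mapk8-KO 2 (log2 difference 1.02, SE 0.26, limma adjusted p = 0.029).

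The targets that were members spanned nearly the whole range of accessibility. Ccna2 encodes cyclin A2 and had 164 and 117 fragments for WT, 210 and 119 for Mapk8-KO, at percentiles from 96.3 to 98.9. Crem encodes a CREB-related factor that binds the same element and had 154, 87, 174 and 79 in that order, at percentiles from 88.5 to 96.2. Neither differed detectably, with log2 differences of 0.21 (SE 0.17) and 0.04 (SE 0.17). Areg encodes amphiregulin, a ligand of the EGF receptor, and had 62 and 31 in WT and 61 and 37 in Mapk8-KO (0.14, SE 0.23). Dusp1 encodes a phosphatase that inactivates JNK and p38, and it had 58 and 27 in WT and 51 and 46 in Mapk8-KO (0.31, SE 0.23). The genotypes overlapped at Crem, Areg and Dusp1 on the centred scale and did not at Ccna2.

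The immediate early gene Ier2 had 44 and 29 fragments in WT and 52 and 28 in Mapk8-KO (log2 difference 0.12, SE 0.25). Maff, a small Maf gene, had 28 and 18 in WT and 38 and 26 in Mapk8-KO (0.51, SE 0.29), and both Mapk8-KO libraries were higher after centring. Gem, a small GTPase gene, had 28 and 18 in WT and 42 and 18 in Mapk8-KO (0.31, SE 0.29). The genotypes did not overlap after centring at Ier2 or Gem either, although the differences were within 2 SE. In fold enrichment Ier2 and Dusp1 ranked low, at percentiles from 2.6 to 7.2 and from 3.2 to 20.5. The palindrome of the clock gene Per1 lay at -1743 bp from the assigned TSS, in an intron, and its region had 40 fragments for WT 1 and 38 and 26 for Mapk8-KO, with no peak in WT 2. That of Vgf, a neuropeptide precursor gene, had a peak of 20 fragments, found only in WT 1.

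The genes of the factors and kinases were examined next, beside the 1.83% of all promoter regions with the palindrome. Of 31 bZIP factor genes, 29 had a promoter region and 2 had the palindrome, Crem and the AP-1 gene Jund, and limma called 0 of 26 tested in either direction, with 1 (Fosl2, not a member) higher in Mapk8-KO at an unadjusted p under 0.05. Jund had 66 and 48 fragments in WT and 89 and 58 in Mapk8-KO (log2 difference 0.37, SE 0.2, limma unadjusted p = 0.0628), with no overlap after centring. Of 29 genes of CREB coactivators and kinases, only Prkar1a, the regulatory subunit of protein kinase A, was a member, at 61 and 68 fragments in WT and 75 and 39 in Mapk8-KO (-0.23, SE 0.21). Its libraries overlapped between genotypes. Limma called 0 of 25 tested genes of that list and 0 of 22 unfolded protein response genes, none of which was a member, although 8 had the TGACG core. At an unadjusted limma p under 0.05, 3 and 4 genes of these lists were higher in Mapk8-KO and 0 in WT, and Prkar1a was not among them. Over all regions tested these shares were 5.82% and 5.44%, and over the other promoter regions 8.18% and 1.73%.

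**Figure D5:**
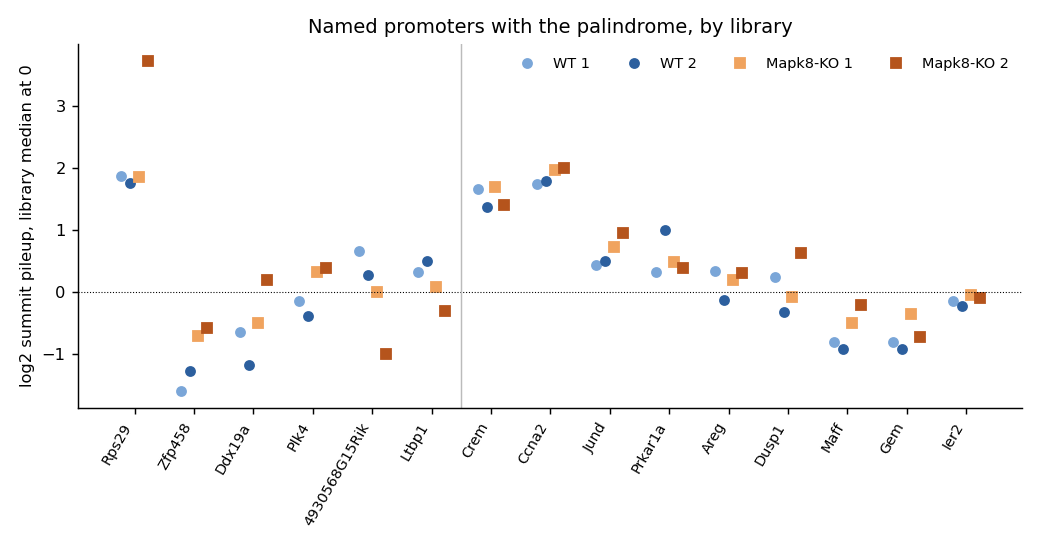
Centred log2 summit pileup in each library (circles WT, squares Mapk8-KO) at 15 members: left of the grey line, the 2 called by limma and 4 others with large differences, and right of it, members from the gene lists. Rps29 stands apart in Mapk8-KO 2 alone, at 3.73.

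Markers of cell identity were read from the same promoter regions. All 6 keratinocyte markers (Krt14, Krt5, Trp63, Itga6, Epcam, Itgb4) had a region, 4 of them in all libraries, and Krt14 had 36 fragments in WT 1, no peak in WT 2, and 199 and 109 for Mapk8-KO. Summed over the list, these markers had 244 and 119 fragments for WT, 440 and 243 for Mapk8-KO. Divided by the relative depth the sums were 244.0 and 171.5 for WT, 400 and 397.1 for Mapk8-KO, so both Mapk8-KO libraries were higher. Krt14 carried much of this gap, and a marker without a peak in a library was counted as 0 there. Of the 4 keratinocyte markers that could be tested (median log2 difference 0.26), 0 had an unadjusted limma p under 0.05. The 4 leukocyte markers, Ptprc among them, had none. Regions were called in all libraries at 1 of 2 endothelial, 2 of 3 fibroblast and 2 of 3 melanocyte markers, and Cdh5, Col1a2 and Tyr had none. After division by depth, the fibroblast sums were 63.0 and 69.2 for WT, 74.5 and 73.5 for Mapk8-KO. The melanocyte sums were 93.0 and 90.8 for WT, 105.5 and 122.5 for Mapk8-KO, and the genotypes overlapped in neither list. The genes within each list went opposite ways. The log2 difference was 0.46 at Pdgfra and -0.42 at Col1a1, and 0.49 at Dct and -0.06 at Mlana. The endothelial sums overlapped, at 33.0 and 59.1 for WT, 39.1 and 35.9 for Mapk8-KO. Among these markers the melanocyte gene Dct was higher in Mapk8-KO at an unadjusted limma p of 0.0209 (adjusted p = 0.334). Whether the makeup of the sorted cells has a part in the results at the members was not tested. The Mapk8 promoter itself was open at 96, 73, 109 and 90 fragments, and since peak lists do not show whether an exon is present, this does not check the deletion.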

How the data were processed

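ATAC-seq peak lists of 2 WT and 2 Mapk8-KO libraries were analysed. Per the methods of the study, the authors used Bowtie2 with mm10 for mapping paired reads and removed reads with several placements or low mapping quality. They then used MACS2 in its paired-end setting with no control library. The labels' processing notes name Trimmomatic 0.36, STAR 2.5.3, Picard, SAMtools and MACS2. Peaks were called per library. Each deposited list gives the fold enrichment (a ratio of summit pileup to local background), the −log10 p-value and the −log10 q-value, a score made from q and the summit offset in bp. The lowest deposited −log10 q was above 2 in each list. Lists held 69927, 54856, 69583 and 49856 peaks (WT 1, WT 2, Mapk8-KO 1, Mapk8-KO 2).

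The summit pileup was recovered from fold and p under the MACS2 Poisson model. It was whole within 0.05 for at least 99.996% of peaks of each library. The value of a region was that of the peak of highest fold. Regions called in all 4 libraries (40159) were tested with limma 3.58.1 (R 4.3.3, variance trend) on log2 pileup centred on the library median, with Benjamini-Hochberg adjustment. No pseudocount was needed. TSSs came from GENCODE M21 basic. Read totals were not used here, and intervals are Wilson 95% for counts of regions. The script was tested on simulated data. The members and gene lists were chosen with earlier results of these data known. Members were named when called by limma, when among the 5 largest differences at p under 0.05 in each direction, when called in 1 genotype only, when among the 5 highest by mean percentile or the 5 highest with 2 palindromes, or when in a gene list. Some members that this rule names are not reported here. The alternatives are in the closing section.

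The shared replicate numbers 1 and 2 were checked for pairing. The deviations of replicate 1 in WT and in Mapk8-KO had a correlation of 0.0392 across the 40159 regions, and the labels name no shared litter or day, so the numbers were not used as pairs.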

Additional observations from a re-analysis of the deposited data

How the results depend on the processing

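Of the values recomputed for the comparisons, 51 stayed close to those reported, 45 moved and 0 changed direction. A change of direction was possible only for the median differences, since the other values were counts and shares. Differences at single genes are not among these values, and that at Braf went from 0.12 to -0.22 without WT replicate 1. Leaving out a library gave 1.86 to 1.92% of promoter regions with the palindrome, 86.5 to 89.1% of members called in all remaining libraries, and a difference of the member median from other promoters of 0.009 (without Mapk8-KO replicate 1) to 0.053 (without Mapk8-KO replicate 2), beside 0.035. Limma then called between 0 (without WT replicate 2 or Mapk8-KO replicate 2, where 27 and 15 members were higher in Mapk8-KO and 1 and 4 in WT at an unadjusted p under 0.05) and 17 members (without Mapk8-KO replicate 1). Members ranked higher in WT numbered 10 to 29 and higher in Mapk8-KO 47 to 83. A rank gap is reached more easily with 1 library on a side, and the same counts over all regions were not made. In limma fits without a library, as printed above for single genes, the lone library is assumed to vary like the other group.

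Lists of equal length gave 2.07% of promoters with the palindrome, 81.2% called in all 4 libraries and 1 limma call. A palindrome within 50 bp of the summit left 235 members (1.07%), 1 limma call and 2 ranked higher in WT. A limit of 500 bp from a TSS gave 2.34% and a difference from other promoters of 0.019. With peaks that cover at least 50% of a region, the values were 74.5% called in all 4, 0 limma calls and 12 ranked higher in Mapk8-KO. Limma also called 0 members with log2 fold enrichment (median difference 0.09), a mean pileup of at least 30, centring on promoter regions (0.05), the GC correction (0.04, and 0.012 against other promoters) and no variance trend. In these 5 and with 50% cover, 11 (promoter centring) to 27 (50% cover) members were higher in Mapk8-KO at an unadjusted limma p under 0.05 and 2 to 7 in WT. Over all regions of these fits, 2731 (log2 fold enrichment) to 4224 (promoter centring) had such a p in either direction. A rank gap of 5 points gave 8 and 39 members for WT and Mapk8-KO, and one of 20 points 1 and 5. The same counts over all regions were not made at these gaps.

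With the replicate block limma called 4 members, Rps29, 4930568G15Rik, Paqr3 and Birc2. By rank within the block 37 members were higher in Mapk8-KO and 6 in WT, a count not made over all regions. The block with the GC correction called 2. Over all regions limma called 244 (386 with the block, 97 with the GC correction, 0 with no variance trend or with log2 fold enrichment, 10 without WT replicate 2, 1719 without Mapk8-KO replicate 1). Peak lists hold no depth below the calling threshold, which limits members near it.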
